A study of Mus musculus with 5 samples.

Results

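Lung without PDE4D was compared with lung of its own wild-type line, named 4D(-/-) and 4D(+/+) by the labels, by setting the array of one against the array of the other. These are 2 of the 5 arrays of the series, and all 45101 probe sets of both arrays were used. The other 3 arrays, C57, 4B(+/+) and 4B(-/-), served as context for where each of the compared arrays lay. All animals were female and naive, so none had received elastase, with which the series' emphysema model is made. C57 was C57BL/6J, and 4B(+/+) and 4B(-/-) were the wild-type and knockout lines for PDE4B. All 4 lines, 4D(+/+) and 4D(-/-) included, came from a mixed C57BL/6 × 129/Ola background and had 11 or more generations of backcrossing to C57BL/6J. Each array held RNA mixed from 3 of 5 whole lungs of a strain, so each side of the comparison is 1 sample and the spread between animals was not measured. The age of the mice, the part of Pde4d that was removed and whether 4D(+/+) mice were littermates of 4D(-/-) mice are, in the sources used here, not given. With 1 array a side no difference below has a replicate check and no p-value is given.

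PDE4D is a phosphodiesterase that hydrolyses cyclic AMP, the messenger made by adenylyl cyclases when receptors coupled to the G protein Gs are occupied. Cyclic AMP acts through protein kinase A, the exchange factors called EPAC and the transcription factor CREB, and phosphodiesterases together with anchoring proteins keep it local. In the lung PDE4 enzymes are present in airway smooth muscle, epithelium, endothelium and leukocytes, and inhibitors of PDE4 are used against chronic obstructive pulmonary disease.

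Values are array intensities on a linear scale, normalised over the 5 arrays by the authors. A gene was represented by its brightest probe set on average and was counted when its highest array reached an intensity of 64, the floor used here, below which a value is close to background. This gave 11500 genes of 18194. The median intensity over all probe sets lay between 45.4 and 46.6 in the 5 arrays. The 3′ to 5′ ratio of control probe sets, a sign of RNA integrity, was 1.83 in 4D(+/+) and 1.86 in 4D(-/-) for actin. For Gapdh the ratio was 1.31 in 4D(+/+) and 1.77 in 4D(-/-), which were the lowest and the highest of the 5 arrays, and the part of RNA quality in the differences below was not tested. Gapdh itself read 3981 in 4D(+/+) and 2830 in 4D(-/-), and the context arrays read 2678 to 2978. Genes that mark lung were bright on both sides: the surfactant protein gene Sftpd read 9718 in 4D(+/+) and 11484 in 4D(-/-).

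Pde4d was still measured in the knockout. Its brightest probe set read 523 in 4D(+/+) and 386 in 4D(-/-), with 456 in C57, 484 in 4B(+/+) and 467 in 4B(-/-). The knockout array was the lowest of the 5, 1.35-fold below its wild type. Another Pde4d probe set lay under the floor everywhere, at 13.1 in 4D(-/-) and 5.46 to 6.45 in the remaining 4 arrays. A probe set outside the removed part checks nothing, and the sources used here do not say where these lie in relation to it. Of the related genes Pde4b read 468 in 4D(+/+) and 466 in 4D(-/-), and its 3 probe sets over the floor stayed within 1.13-fold. Pde4a was under the floor in all arrays. None of 10 other phosphodiesterase genes over the floor differed by 1.5-fold; Pde6d, which encodes a prenyl-binding protein and not a cyclic nucleotide hydrolase, was 1.26-fold lower and Pde7b, a cyclic AMP phosphodiesterase, 1.21-fold higher.

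The genes that make and read cyclic AMP differed little. The median log2 difference, 4D(-/-) minus 4D(+/+), was 0.08 over 21 genes of cyclic AMP production and 0.11 over 29 genes of sensing and anchoring. Over all genes it was 0, with 1.1% of genes higher and 4.53% lower by 1.5-fold. In the first list 1 gene was past 1.5-fold. It was Ptger4, a Gs-coupled prostaglandin E2 receptor, at 324 in 4D(-/-) against 211 in 4D(+/+) and 248 to 258 in the context arrays. In the second list 2 genes were lower and 0 higher by 1.5-fold. Pkia, an inhibitor peptide of protein kinase A, read 458 in 4D(-/-) and 749 in 4D(+/+), with 377 to 457 in the other 3 arrays. Prkar2b, a regulatory subunit of the kinase that is abundant in fat, read 273 in 4D(-/-) and 421 in 4D(+/+), with 285 in C57, 389 in 4B(+/+) and 236 in 4B(-/-). For Pkia and Prkar2b it was thus 4D(+/+) that lay above the other 4 arrays.

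Immediate early genes, many of which CREB drives, were at a median of 0.14 over 23 genes, with 1 higher and 1 lower by 1.5-fold. Against C57 that median was -0.36. Nr4a3, an orphan nuclear receptor, read 815 in 4D(-/-) against 434 in 4D(+/+), 383 in C57, 473 in 4B(+/+) and 431 in 4B(-/-). The knockout array was above all 4 others, by 1.72-fold from the nearest. A dimmer Nr4a3 probe set pointed the other way, at 63.8 in 4D(-/-) and 75.2 in 4D(+/+). Its relative Nr4a1 read 581 in 4D(-/-) and 726 in 4D(+/+), within a range of 226 to 1548 over the other 3 arrays. Atf3, a stress-induced repressor, was 1.51-fold lower, at 181 against 274. The palindrome TGACGTCA, the full site of CREB, was found within 250 bases before the start of 3 of 18 immediate early genes with a promoter sequence and in 2.88% of genes over the floor. Neither Nr4a3 nor Atf3 held it there.

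More genes were lower than higher in the knockout. At 2-fold 24 genes (0.209%) were higher and 174 (1.51%) lower in 4D(-/-), and 74.1% of genes lay within 1.2-fold. Probe sets taken singly gave 37 (0.178%) higher and 248 (1.19%) lower of 20802. The split belongs to this pair of arrays. With C57 in place of 4D(+/+), there were 39 higher and 23 lower genes. Against an average of C57, 4B(+/+) and 4D(+/+) there were 11 higher and 27 lower genes. Of the 24 higher genes 7 had the lower of the 2 values under the floor, and of the 174 lower genes 63 did, so their folds stand on a value close to background. Where several probe sets of a gene were over the floor, all of them were past 1.5-fold the same way for 5 of 9 higher genes and for 18 of 25 lower genes.

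**Figure D1:**
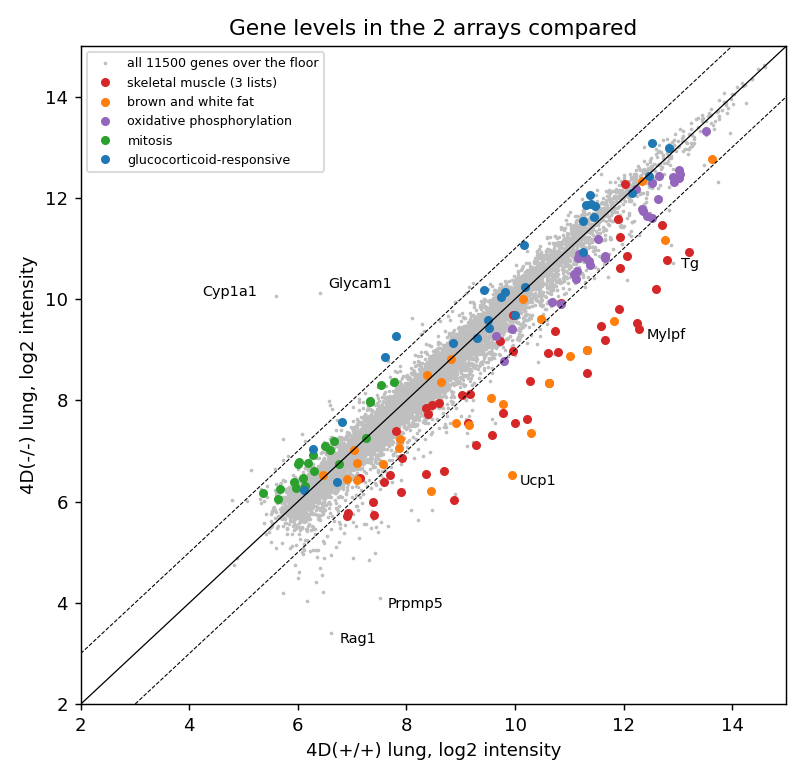
Log2 intensity of each of 11500 genes in 4D(+/+) (x axis) and 4D(-/-) (y axis), 1 pooled array each; the solid line marks equal values and the dashed lines 2-fold. Of the skeletal muscle genes 36 of 50, and of the fat genes 12 of 27, are lower by 2-fold or more. Oxidative phosphorylation genes lie along the lower edge, and Cyp1a1 and Glycam1 stand apart above.

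The context arrays show which side stood apart. Among the 174 lower genes 4D(+/+) was the highest of the 5 arrays for 160, and 4D(-/-) was the lowest for 54. Over all genes 4D(+/+) was highest for 14.9% and 4D(-/-) lowest for 29.9%. In 81 of the lower genes 4D(+/+) was 2-fold or more above every other array. Among the 24 higher genes 4D(-/-) was the highest of the 5 for 21, against 17.9% of all genes, and 4D(+/+) the lowest for 15, against 20%. The call itself puts 4D(+/+) above 4D(-/-) in every lower gene and below it in every higher gene. It thus raises these counts, and the shares over all genes are not a like baseline for them. As a description, the lower genes mostly had a high wild-type array, and the higher genes mostly a high knockout array.

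Cyp1a1, a cytochrome P450 that oxidises aromatic hydrocarbons and the classical target of the aryl hydrocarbon receptor, differed most. It read 1074 in 4D(-/-), 48.3 in 4D(+/+), 51.4 in C57, 41.4 in 4B(+/+) and 38.5 in 4B(-/-). All 4 arrays other than the knockout were under the floor, and the knockout was 16.8-fold above the floor. The other genes of the receptor's battery differed by far less. Of 10 over the floor 9 were higher to some degree and Cyp1a1 was the 1 gene past 1.5-fold, and the median log2 difference was 0.14. The knockout array was the highest of the 5 for 5 of the 10, against 17.9% of all genes. Tiparp, a poly-ADP-ribose polymerase induced by the receptor, was 1.33-fold higher at 927 against 696, with 837 in C57, and Cyp1b1 1.11-fold at 149 against 135. The receptor gene Ahr read 1301 in 4D(-/-) and 1280 in 4D(+/+), and the oxidoreductase gene Nqo1 82.4 and 75.1. The sequence before the start of Cyp1a1 is shown because this gene stood farthest apart. It is chr9:57697363-57697612 of GRCm38.p6, plus strand, from RefSeq, with GCGTG, the core of the receptor's response element, in capitals:
Cyp1a1: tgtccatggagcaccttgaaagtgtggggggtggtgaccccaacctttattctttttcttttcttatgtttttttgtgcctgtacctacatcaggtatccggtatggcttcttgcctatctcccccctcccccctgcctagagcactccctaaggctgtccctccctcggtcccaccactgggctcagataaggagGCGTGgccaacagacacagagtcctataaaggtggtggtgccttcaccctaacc
GCGTG occurred here 54 bases before the start. On either strand it was present in 28.2% of the promoter windows used and in 49.8% of genes over the floor with such a window, so its presence in 1 window is common.

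Glycam1, a sialomucin of high endothelial venules that carries ligands of L-selectin, read 1116 in 4D(-/-) and 85.2 in 4D(+/+), with 588 in C57, 87.2 in 4B(+/+) and 16.4 in 4B(-/-). It was 13.1-fold above its wild type and 1.90-fold above C57, the nearest array. The difference between the 2 wild-type arrays C57 and 4D(+/+) was itself large. Of 9 high endothelial venule genes measured 4 were under the floor, and over the 5 that passed the summed intensity was 2238 in 4D(-/-), 971 in 4D(+/+) and 915 to 1558 in the context arrays. Glycam1 was the 1 gene of the list past 1.5-fold.

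Some genes of B cells and immunoglobulins were higher in 4D(-/-). All 12 B-cell genes over the floor were higher to some degree, 2 of them by 1.5-fold, against 1.1% of all genes. The median log2 difference of the 12 was 0.40. The knockout array was the highest of the 5 for 3 of the 12, against 17.9% of all genes. Ighm, the heavy chain of IgM, read 5673 in 4D(-/-), 3082 in 4D(+/+), 2414 in C57, 4187 in 4B(+/+) and 3168 in 4B(-/-). H2-Ob, which is in both the B-cell and the MHC class II list, was 1.72-fold higher at 190 against 110, but C57 was higher still at 243. Ighg3, the heavy chain of IgG3, read 151 in 4D(-/-) and 52.8 to 87 elsewhere, and Pou2af1, a coactivator of octamer factors in B cells, read 147 against 69.7, with 128 in C57. Over 11 plasma-cell and immunoglobulin genes 3 were higher and 0 lower by 1.5-fold, at a median of 0.34. To some degree 10 were higher and 1 lower. Igha, the heavy chain of IgA, was 4114 in 4D(-/-) and 3556 in 4D(+/+), and 1270 in C57. For the B-cell list the median stood against C57 on the other side, at -0.24, and the share of lymphoid tissue in the lung powder was not measured.

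Many collagen genes were higher in the knockout array, most of them by less than 1.5-fold. Col1a1, a chain of type I collagen, read 1111 in 4D(-/-), 547 in 4D(+/+), 586 in C57, 491 in 4B(+/+) and 552 in 4B(-/-). The 4 other arrays lay close together and the knockout was 1.90-fold above the nearest. A dimmer Col1a1 probe set read 211 against 156, with 159 to 172 in the other 3 arrays. Col3a1 read 8627 in 4D(-/-) and 6004 to 6086 in the remaining 4 arrays. Col8a1, a short-chain collagen of vessels, was 1.72-fold higher at 384 against 223, with 245 to 292 elsewhere. Over 26 genes of fibrillar collagens and their processing 2 were higher and 0 lower by 1.5-fold, against 1.1% and 4.53% of all genes. The median of the 26 was 0.22. The knockout array was the highest of the 5 for 17 of these 26 genes, against 17.9% of all genes.

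Basement membrane genes showed the same order. All 18 were higher in 4D(-/-), with a median of 0.32. The knockout array was the highest of the 5 for 15 of them, against 17.9% of all genes. Col4a1, a chain of type IV collagen, read 4556 in 4D(-/-), 2913 in 4D(+/+), 3743 in C57, 3076 in 4B(+/+) and 3331 in 4B(-/-). The laminin chain gene Lamc1 read 493 in 4D(-/-) and 314 to 389 elsewhere, and Nid1, which links laminin to collagen IV, read 1674 against 1177, with 1103 to 1417 in the other 3 arrays. Taken by symbol after the values were seen, 31 collagen genes had a median of 0.41, with 6 higher and 0 lower by 1.5-fold.

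Elastin, the matrix protein whose loss marks emphysema, was higher as well. Eln read 754 in 4D(-/-), 393 in 4D(+/+), 403 in C57, 439 in 4B(+/+) and 616 in 4B(-/-). Its other probe set read 123 in 4D(-/-) and 74.7 in 4D(+/+), so both were higher, by 1.92-fold and 1.64-fold. In 4B(-/-) Eln was also above the 3 wild-type arrays. Of 18 elastic fibre genes 16 were higher to some degree and Eln was the 1 gene past 1.5-fold. Ltbp2, a microfibril protein, read 791 against 531, and Loxl1, a lysyl oxidase that cross-links elastin, 1308 against 907.

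Of 14 genes over the floor in a list of elastin proteases and other proteases, 2 were higher and 0 lower by 1.5-fold. The median of the 14 was 0.21, with 9 higher to some degree and 5 lower. The list holds Adamts1, Adamts5, Adamts15 and Adam17, so its counts do not describe elastin proteases alone. Adamts15, a metalloprotease that cleaves versican and aggrecan, read 793 in 4D(-/-), 274 in 4D(+/+), 280 in C57, 397 in 4B(+/+) and 534 in 4B(-/-). The brightest probe set of Adamts9, which is not in that list, followed the same order of arrays, at 730, 310, 311, 453 and 602. Its other probe set read 275 in 4D(-/-), 122 in 4D(+/+) and 103 to 111 elsewhere. In both genes 4D(-/-) was the highest of the 5, whereas 4B(-/-) stood above the wild types in Adamts15 and in 1 of the 2 Adamts9 probe sets. Taken by symbol after the values were seen, 13 genes of the Adamts and Adamtsl families held 4 higher and 0 lower by 1.5-fold. The gelatinase Mmp2 read 1218 in 4D(-/-) and 739 to 788 in the remaining 4 arrays, and its other probe set was 1.62-fold higher. Mmp12, the macrophage elastase, was 67.3 in 4D(-/-) and 52.3 in 4D(+/+), against 138 in C57. Adamts5, an aggrecanase, read 253 against 318, and Mmp3, stromelysin, 453 against 527. Of 24 genes of TGF-beta signalling and repair 1 was higher and 2 were lower by 1.5-fold, against 1.1% and 4.53% of all genes. The median of the 24 was 0.15. The higher gene was Fn1, fibronectin, at 3240 against 2010, with 2123 to 2558 elsewhere. The lower genes were Ccn1, a matricellular protein, at 544 against 837, with 1947 in C57, and Grem1, an antagonist of bone morphogenetic proteins, at 97.7 against 149, with 66.3 to 124 elsewhere.

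Mitosis genes were higher in 4D(-/-), and DNA replication genes differed less. Of 21 mitosis genes over the floor 9 were higher and 0 lower by 1.5-fold, against 1.1% and 4.53% of all genes. The median of the 21 was 0.57. The knockout array was the highest of the 5 for 16 of the 21, against 17.9% of all genes. Over 21 DNA replication genes the median was 0.08, with 0 past 1.5-fold in either direction. To some degree 16 were higher and 4 lower, and 4D(-/-) was the highest of the 5 arrays for 6. Mki67, the proliferation antigen Ki-67, read 318 in 4D(-/-), 185 in 4D(+/+), 192 in C57, 158 in 4B(+/+) and 185 in 4B(-/-). Cenpf, a kinetochore protein, read 72 in 4D(-/-) and 29.9 to 42.4 elsewhere, so it passed the floor in 1 array. Prc1, a bundler of spindle microtubules, read 111 against 65.2, with 65 to 76.9 in the other 3 arrays. Pbk, a mitotic kinase, read 255 against 161, with 184 in 4B(-/-). Ube2c, the ubiquitin-conjugating enzyme of the anaphase-promoting complex, read 107 in 4D(-/-) and 64.2 in 4D(+/+), but 108 in 4B(-/-). Most of these genes were dim, near the floor, and 13 of 34 measured did not reach it. A gene entered through its highest array, so dim members high in 4D(-/-) could enter through that array alone. This may raise the counts and the median of the mitosis list, and the share over all genes is not a like baseline for them.

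The promoters of 3 of these genes are shown because a window of each holds a short element. TTTGAA is the core of the cell cycle genes homology region, a control element of genes of the G2 and M phases. It was found on either strand in 8 of 18 mitosis genes with a promoter sequence, and in 5 of the 7 such genes that were higher by 1.5-fold, against 12.8% of genes over the floor. Its letters are in capitals in Mki67 (chr7:135716380-135716629, minus strand), Prc1 (chr7:80294226-80294475, plus strand) and Ube2c (chr2:164769679-164769928, plus strand, where it lies on the opposite strand and reads TTCAAA), all from RefSeq, GRCm38.p6:
Mki67: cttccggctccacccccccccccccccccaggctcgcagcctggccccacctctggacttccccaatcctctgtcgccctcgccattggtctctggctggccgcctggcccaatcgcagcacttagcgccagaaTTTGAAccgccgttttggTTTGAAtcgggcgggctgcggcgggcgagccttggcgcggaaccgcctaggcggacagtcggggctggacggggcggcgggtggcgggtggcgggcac
Prc1: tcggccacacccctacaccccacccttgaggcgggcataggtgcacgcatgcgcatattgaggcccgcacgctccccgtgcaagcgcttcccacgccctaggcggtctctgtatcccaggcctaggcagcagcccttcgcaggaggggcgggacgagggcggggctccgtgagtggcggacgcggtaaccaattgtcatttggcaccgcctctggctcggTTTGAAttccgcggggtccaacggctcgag
Ube2c: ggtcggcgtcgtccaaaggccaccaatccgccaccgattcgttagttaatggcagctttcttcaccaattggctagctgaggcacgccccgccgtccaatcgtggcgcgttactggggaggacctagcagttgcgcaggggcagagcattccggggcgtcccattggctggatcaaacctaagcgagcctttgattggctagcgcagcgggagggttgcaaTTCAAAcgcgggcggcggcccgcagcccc
The element lay 98 and 116 bases before the start of Mki67, 30 before the start used for Prc1 and 29 before that of Ube2c. Of the 11 mitosis genes with a sequence that did not pass 1.5-fold, 3 held it. Another RefSeq window of Prc1, from a start 25 bases upstream, did not hold it, and neither did that of Cenpf. A match is a description of these letters and not of binding.

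Genes that respond to glucocorticoids were higher than in 4D(+/+). Against the mean of the other 3 arrays the list median was 0.14 in 4D(-/-) and -0.17 in 4D(+/+). Of 27 over the floor 7 were higher and 0 lower by 1.5-fold, against 1.1% and 4.53% of all genes. The median of 4D(-/-) minus 4D(+/+) was 0.29. The wild-type array 4D(+/+) was the lowest of the 5 for 13, against 20% of all genes. The knockout array was the highest for 8, against 17.9%. Zbtb16, a zinc-finger repressor that glucocorticoids induce, read 619 in 4D(-/-), 225 in 4D(+/+), 470 in C57, 592 in 4B(+/+) and 1118 in 4B(-/-). Fkbp5, a co-chaperone of the glucocorticoid receptor, read 465, 196, 245, 321 and 521 in the same order. In both genes 4D(+/+) was lowest and 4B(-/-) highest, and against the mean of the other 3 arrays Zbtb16 was at -0.13 in the knockout. Cdkn1a, the cell cycle inhibitor p21, read 2143 in 4D(-/-), 1145 in 4D(+/+), 731 in C57, 1918 in 4B(+/+) and 2203 in 4B(-/-). Map3k6 was 1.69-fold higher at 192 against 113. Clock genes, whose levels follow the time of day, had a median of 0.04 over 20 genes with 0 past 1.5-fold between the compared arrays, and their summed intensity was 8656 in 4D(-/-) and 8200 in 4D(+/+), and 14132 in C57.

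Alveolar macrophage genes were mostly higher. Of 17 over the floor 13 were higher to some degree and 3 lower, with a median of 0.31. By 1.5-fold 4 were higher and 1 lower, against 1.1% and 4.53% of all genes. Marco, a scavenger receptor, read 254 in 4D(-/-), 95.5 in 4D(+/+), 146 in C57, 145 in 4B(+/+) and 146 in 4B(-/-). The 3 context arrays were alike, with the compared arrays on either side of them. Chil3, a chitinase-like protein, read 8183 in 4D(-/-) against 5291, with 6119 to 6991 elsewhere. Atp6v0d2, a proton pump subunit, was 1.70-fold higher and Fabp1 1.74-fold. The 1 gene lower by 1.5-fold was Fabp4, a fatty acid binding protein of both fat cells and macrophages, at 2292 against 6939. Fabp4 is also in the fat list. Il33, an alarmin of type 2 alveolar cells, was 1.67-fold higher at 1980 against 1189, with 1260 to 1704 in the other 3 arrays. The chemokine Ccl5 was 2.14-fold higher at 1285 against 600, but C57 stood at 1061 and 4B(+/+) at 980.

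Red cell genes were higher by 1.5-fold in 2 of 7 cases, with a median of 0.36. To some degree 5 were higher and 1 lower. Alas2, the erythroid enzyme of haem synthesis, read 240 in 4D(-/-), 96.6 in 4D(+/+) and 147 to 209 in the context arrays. Hbb-b2, a beta globin, read 100 in 4D(-/-) and 47.8 in 4D(+/+), with 63.3 to 68.2 elsewhere. Its other probe set showed no such difference, at 72.2 and 71.6, with 47.2 to 77.1 elsewhere. The share of blood left in the lungs was not measured.

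**Figure D2:**
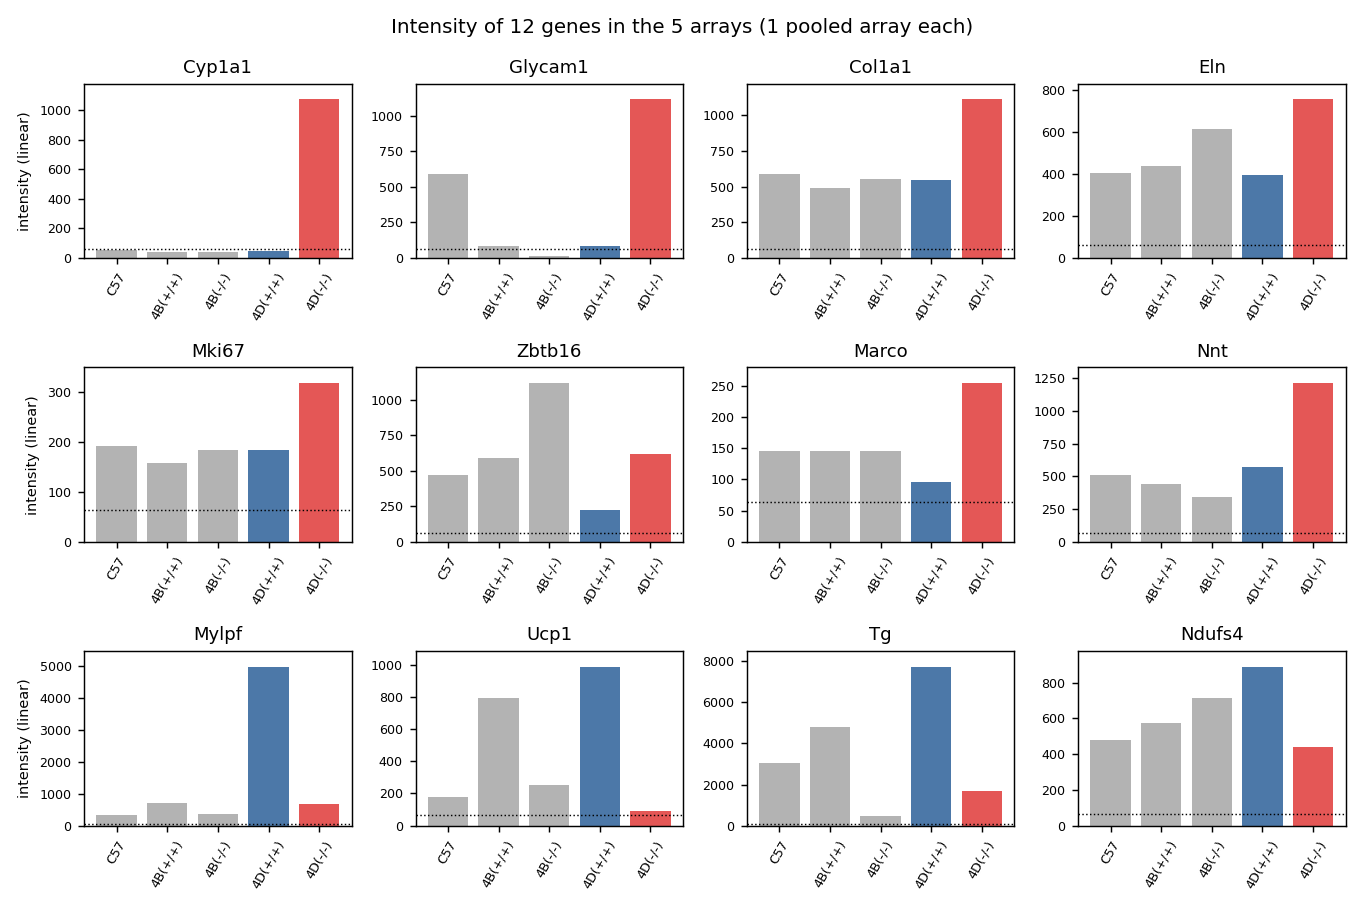
Intensity (linear scale, y axis) of 12 genes in the 5 arrays, 1 pooled array each; grey bars are the context arrays, the blue bar is 4D(+/+), the red bar is 4D(-/-), and the dotted line is the floor of 64. Cyp1a1, Col1a1, Mki67 and Nnt are high in 4D(-/-) alone, whereas Mylpf is high in 4D(+/+) alone and Zbtb16 is low there.

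Skeletal muscle genes made up the largest block of lower genes among the lists. Over 3 lists of thick filament, thin filament, and calcium and energy genes, 50 were over the floor. Of the 50, 43 were lower and 0 higher by 1.5-fold, against 4.53% and 1.1% of all genes. At 2-fold 36 were lower, and 4D(+/+) was the highest of the 5 arrays for 46, against 14.9% of all genes. Mylpf, a light chain of fast myosin, read 678 in 4D(-/-), 4979 in 4D(+/+), 338 in C57, 706 in 4B(+/+) and 372 in 4B(-/-). The knockout lay inside the range of the other strains and the wild-type array far above it. Tnnc2, troponin C of fast fibres, read 1949 against 9432, with 889 to 1953 in the other 3 arrays. Pvalb, the calcium buffer of fast fibres, read 371 against 2580, with 144 to 447 elsewhere, and Actn3, the alpha-actinin of the fast Z disc, 187 against 1027, with 75.8 to 237.

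The size of the muscle difference depended on the reference. The median log2 difference of the thick filament list was -1.57 against 4D(+/+) and 0.89 against C57, that of the thin filament list -1.20 and 0.52, and that of the calcium and energy list -1.53 and 0.40. Against the mean of C57, 4B(+/+) and 4B(-/-) the knockout stood at 0.58, 0.14 and 0.17, and 4D(+/+) at 2.22, 1.34 and 1.52. The direction therefore turned with the reference in all 3 lists. Summed over the thick filament list the intensity was 8367 in 4D(-/-), 24988 in 4D(+/+) and 3794 to 7068 in the context arrays. Heart genes differed less. Of 18 over the floor 4 were lower and 0 higher by 1.5-fold, against 4.53% and 1.1% of all genes. The list median was -0.20 here and 0.20 against C57. The 4 were Myl2, at 18.3 against 53 and so under the floor on both sides, Hrc at 166 against 355, Myl3 at 151 against 290 and Csrp3 at 622 against 963. Of the rest 10 were lower and 4 higher, among them Myh6, the atrial myosin, at 2983 against 2220. In whole tissue, fewer cells of a type and less RNA per cell cannot be told apart.

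Promoters of 3 muscle genes are shown because their genes differed the same way and share an element. CAGCTG is an E-box that binds myogenic factors such as MyoD, and it reads the same on both strands. It was present in 19 of 36 muscle genes with a promoter sequence, against 14.4% of genes over the floor. Of the 30 that were lower by 1.5-fold, 15 held it. Its letters are in capitals in Mylpf (chr7:127211358-127211607, plus strand), Myl1 (chr1:66945057-66945306, minus strand) and Cox8b (chr7:140900447-140900696, minus strand), from RefSeq, GRCm38.p6:
Mylpf: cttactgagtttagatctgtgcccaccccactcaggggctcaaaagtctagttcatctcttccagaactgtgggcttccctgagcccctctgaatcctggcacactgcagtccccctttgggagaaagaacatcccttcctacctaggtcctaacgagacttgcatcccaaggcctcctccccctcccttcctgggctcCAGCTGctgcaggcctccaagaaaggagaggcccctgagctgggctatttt
Myl1: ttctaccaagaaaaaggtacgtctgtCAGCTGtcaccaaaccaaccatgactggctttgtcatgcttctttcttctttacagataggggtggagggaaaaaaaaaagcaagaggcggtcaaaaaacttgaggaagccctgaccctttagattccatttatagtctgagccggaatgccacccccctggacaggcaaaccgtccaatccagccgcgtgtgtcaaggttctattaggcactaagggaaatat
Cox8b: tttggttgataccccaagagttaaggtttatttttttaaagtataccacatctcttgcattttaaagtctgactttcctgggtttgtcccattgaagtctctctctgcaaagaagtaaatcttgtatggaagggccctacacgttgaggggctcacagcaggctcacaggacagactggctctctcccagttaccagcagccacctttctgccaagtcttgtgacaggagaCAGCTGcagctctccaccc
The element lay 51 bases before the start of Mylpf, 224 before that of Myl1 and 19 before that of Cox8b. Myl1, the essential light chain of fast myosin, read 1178 against 6157, and Cox8b, the muscle and brown fat form of a cytochrome oxidase subunit, read 508 against 2571. Of 6 muscle genes with a sequence that were not lower by 1.5-fold, 4 held the element.

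Fat genes were lower, and in the white fat list the knockout array was low as well. In the brown and white fat lists 27 genes were over the floor. Of the 27, 18 were lower and 0 higher by 1.5-fold, against 4.53% and 1.1% of all genes. Cox8b and Cox7a1, 2 of the 27, are also in a muscle list. Ucp1, the uncoupling protein of brown fat, read 92.2 in 4D(-/-), 986 in 4D(+/+), 176 in C57, 792 in 4B(+/+) and 251 in 4B(-/-). The wild-type arrays alone spanned 176 to 986, and the knockout was 1.91-fold below C57, the nearest. Cidea, a lipid droplet protein, read 164 against 1256, with 237 in C57, 993 in 4B(+/+) and 462 in 4B(-/-). Adipoq, the hormone adiponectin, read 468 against 2065, with 615 in C57, 1952 in 4B(+/+) and 1689 in 4B(-/-), and Retn, resistin, read 244 against 877. Pck1, which makes glycerol in fat cells, read 182 against 566, with 285 to 848 in the other 3 arrays. Against the mean of the other 3 arrays the white fat list stood at -0.48 in 4D(-/-) and 0.32 in 4D(+/+). Summed white fat intensity was 18044 in 4D(-/-), 35355 in 4D(+/+) and 19139 to 31328 elsewhere. The knockout array was the lowest of the 5 for 10 of 18 white fat genes and for 2 of 9 brown fat genes, against 29.9% of all genes. Against C57 the white fat median was -0.18 and the brown fat median 0.11.

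Genes of thyroid, parathyroid, glands and squamous epithelium were in part lower. Of 9 thyroid and parathyroid genes 7 were lower by 1.5-fold, against 4.53% of all genes, with a median of -1.92. Tg, thyroglobulin, read 1687 in 4D(-/-), 7717 in 4D(+/+), 3065 in C57, 4802 in 4B(+/+) and 448 in 4B(-/-), and Pth, parathyroid hormone, read 2155, 7455, 1799, 4999 and 432. Both genes ranged widely among strains, with 4D(+/+) highest and 4B(-/-) lowest. Of 19 gland genes 10 were lower and 0 higher by 1.5-fold, against 4.53% and 1.1% of all genes. To some degree 14 were lower and 5 higher. Lipf, gastric lipase, read 5056 in 4D(-/-) and 13730 in 4D(+/+), with 234 to 9517 elsewhere, and Amy1, salivary amylase, read 46.1 against 202. Prpmp5, a proline-rich salivary protein, read 17.2 against 182. Krt15, a keratin of basal cells, read 270 against 744, and 5 of 9 squamous and basal genes were lower by 1.5-fold. All 9 were lower to some degree. The gland and squamous medians were -0.62 and -0.59 here, 0.19 and 0.27 against C57, and 0.0053 and 0.14 against the mean of the other 3 arrays, so their direction turned with the reference. Lists of tissue that lies next to the lung or airway, muscle and fat included, held 66 of the 174 lower genes, and 99 lower genes were in none of the 59 lists. For 92 of those 99 genes 4D(+/+) was again the highest of the 5 arrays.

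Most genes of the respiratory chain were lower than in 4D(+/+). All 30 genes of the oxidative phosphorylation list were lower, 16 of them by 1.5-fold, against 4.53% of all genes. The list median was -0.59, and against C57 it was -0.05. Ndufs4, a subunit of complex I, read 441 in 4D(-/-), 887 in 4D(+/+), 480 in C57, 575 in 4B(+/+) and 716 in 4B(-/-). Ndufa4 read 3122 against 5864, with 3490 to 4815 in the other 3 arrays, and the ATP synthase subunit gene Atp5o 1798 against 3230, with 1870 to 2745. In Ndufs4, Ndufa4 and Atp5o the compared arrays were the 2 ends of the 5. Over the list 4D(+/+) was the highest for 29 genes and 4D(-/-) the lowest for 21, against 14.9% and 29.9% of all genes. Against the mean of the other 3 arrays the medians were 0.32 in 4D(+/+) and -0.22 in 4D(-/-). A wider set of 79 respiratory chain genes, taken by symbol after the values were seen, had 35 lower and 0 higher by 1.5-fold and a median of -0.56, and 77 were lower to some degree. Mitochondrial ribosomal protein genes had a median of -0.44 over 76, with 20 lower by 1.5-fold, and cytosolic ones -0.11 over 46. The muscle and brown fat lists differed in the same direction, and their part in the mitochondrial difference was not tested. Summed brown fat intensity was 3468 in 4D(-/-), 9536 in 4D(+/+) and 3318 to 6349 elsewhere.

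Genes of fatty acid synthesis were lower by 1.5-fold in 5 of 17 cases, with a median of -0.43. To some degree 13 were lower and 4 higher. Elovl6, an elongase, read 265 in 4D(-/-), 767 in 4D(+/+), 199 in C57, 468 in 4B(+/+) and 322 in 4B(-/-). Mlxipl, the carbohydrate-responsive transcription factor, read 57.3 against 138, with 63.2 to 84 elsewhere. Against the other 3 arrays the list stood at -0.08 in 4D(-/-) and 0.43 in 4D(+/+), so the wild-type array stood apart here too.

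**Figure D3:**
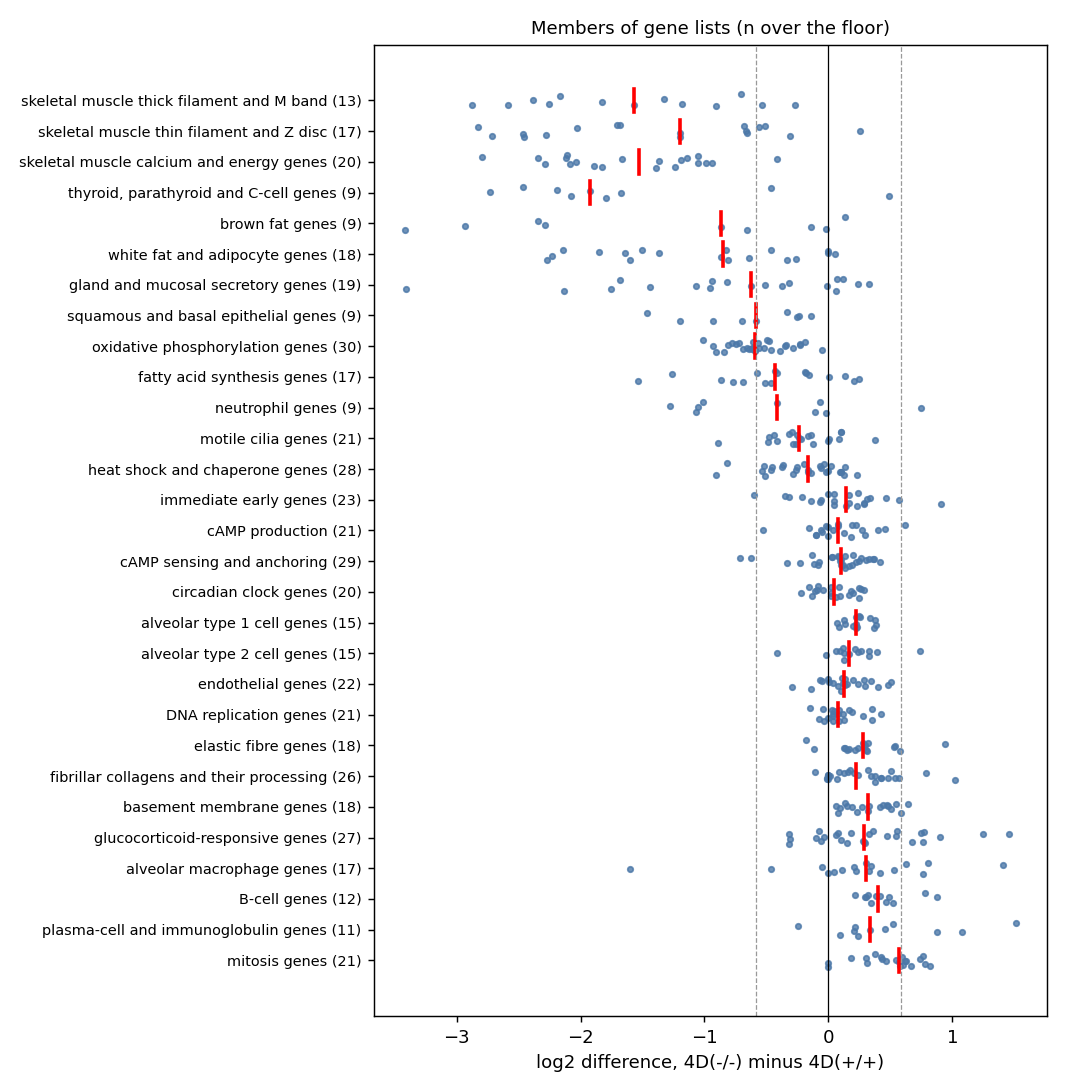
Log2 difference of 4D(-/-) minus 4D(+/+) (x axis) for the members over the floor of 29 gene lists (number in brackets); each point is a gene, the red bar is the list's median, and the dashed lines mark 1.5-fold. The 3 muscle lists have medians of -1.57, -1.20 and -1.53, oxidative phosphorylation -0.59 and mitosis 0.57, whereas the lists of cyclic AMP genes lie around 0.08 and 0.11.

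Cell types of the lung itself differed less. Alveolar type 1 genes had a median of 0.23 over 15, all of them higher, with 0 past 1.5-fold, and type 2 genes 0.16 over 15. Endothelial genes had a median of 0.13 over 22 with 0 past 1.5-fold. Against C57 the type 1 and endothelial medians were -0.04 and -0.07. For type 1 genes 4D(+/+) was the lowest of the 5 arrays for 10 of 15, against 20% of all genes. Motile cilia genes had a median of -0.24, with 1 of 21 lower by 1.5-fold, near the 4.53% of all genes. For 15 of the 21, 4D(-/-) was the lowest of the 5 arrays, against 29.9% of all genes. Among club cell genes 3 of 14 were lower by 1.5-fold, and to some degree 9 were lower and 5 higher. Scgb3a1, a secretoglobin, read 9930 in 4D(-/-), 15952 in 4D(+/+), 11248 in C57, 15843 in 4B(+/+) and 14792 in 4B(-/-), and Lypd2 read 933 against 1833, with 1056 in C57. In Scgb3a1 and Lypd2 the knockout was close to C57 and the other 3 arrays were higher.

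Neutrophil genes were lower by 1.5-fold in 4 of 9 cases and higher in 1, against 4.53% and 1.1% of all genes. To some degree 8 of the 9 were lower. S100a8 and S100a9, the calprotectin subunits, read 1213 and 622 in 4D(-/-), 2508 and 1252 in 4D(+/+), and 1343 and 646 in C57. The neutrophil chemokine Cxcl5 read 53.8 in 4D(-/-), 130 in 4D(+/+), 18.7 in C57, 593 in 4B(+/+) and 194 in 4B(-/-). Against C57 the median of the neutrophil list was 0.02, on the other side of 0. Lcn2, an iron carrier of neutrophils and epithelium, was the 1 higher gene, at 1161 against 692. Of 21 interferon-stimulated genes 1 was lower by 1.5-fold, near the 4.53% of all genes. It was Ifi27l2a, which read 1393 in 4D(-/-) against 3360, with 1813 in C57 and 3525 and 3794 in the 4B lines.

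**Figure D4:**
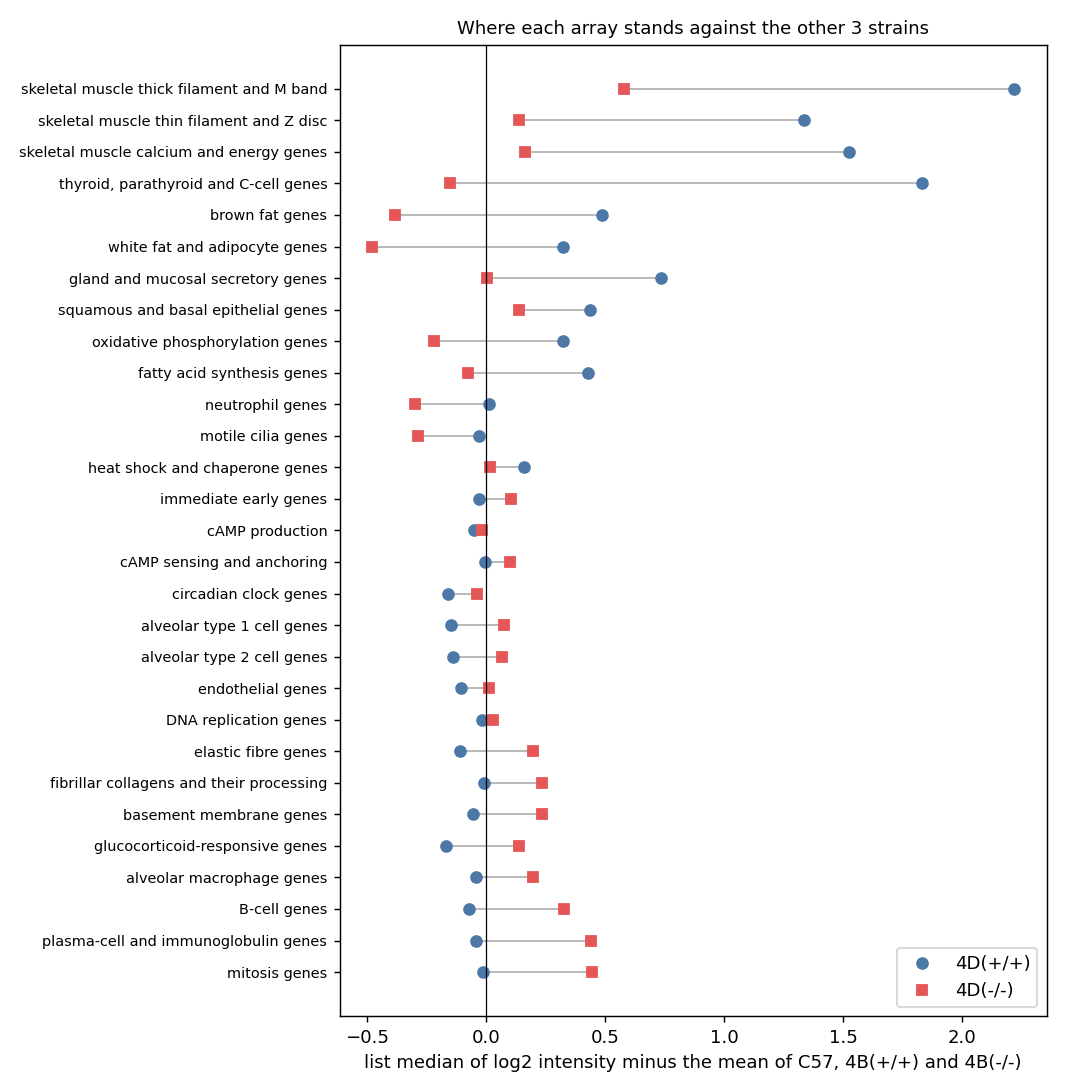
Median log2 intensity of each list in 4D(+/+) (blue circles) and 4D(-/-) (red squares) minus the mean of C57, 4B(+/+) and 4B(-/-) (x axis), 1 pooled array each. In the muscle and thyroid lists the blue circle stands far to the right, at 2.22 for the thick filament list, whereas in the mitosis, immunoglobulin and collagen lists the red square is the one away from 0.

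Genes for which the knockout array stood outside all other strains were few. By 1.5-fold or more 4D(-/-) was above all 4 other arrays for 21 genes and below them for 11. The same counts for 4D(+/+) were 146 above and 5 below. After Cyp1a1, Nnt and Glycam1 the genes farthest above, with values under 64 set to 64, were Col1a1, Abtb2, Marco, Ighg3, Nr4a3, Socs3, Phex and Mki67. Socs3, a feedback inhibitor of cytokine receptors, read 1254 in 4D(-/-) and 555 to 746 in the remaining 4 arrays. Phex, an endopeptidase of phosphate balance, read 195 in 4D(-/-) and 96.2 to 116 elsewhere, and Abtb2 439 against 166 to 252. Il22ra2, a soluble decoy receptor for interleukin 22, read 120 in 4D(-/-) and 52.8 to 73.1 elsewhere. Fscn1, an actin bundler of mature dendritic cells, read 989 in 4D(-/-) and 399 to 644 elsewhere, but its other probe set read 133 against 131 in 4D(+/+). Farthest below were Ucp1, 4833420G17Rik, Arsk, Pck1 and G0s2. G0s2, an inhibitor of the fat cell lipase, read 549 in 4D(-/-) and 836 to 1003 elsewhere. Cyp2e1, a cytochrome P450 of ethanol oxidation, read 328 in 4D(-/-), 496 in 4D(+/+) and 613 to 863 in the context arrays.

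The chromosome around Pde4d was examined because a targeted allele is inherited with its neighbours. In the gene order of RefSeq, 132 genes over the floor lay within 100 such genes on either side, 100 before it and 32 after it to the end of the chromosome. Of these 3 were higher and 13 lower by 1.5-fold in 4D(-/-), against 1.1% and 4.53% of all genes. Some of the lower ones, such as Ckmt2, Cmya5 and Hspb3, were not lowest of the 5 arrays in 4D(-/-). For 5 the knockout array stood 1.5-fold or more outside all 4 others. Nnt, the mitochondrial transhydrogenase, of which C57BL/6J is known to carry a deletion, was 26 genes after Pde4d and read 1212 in 4D(-/-), 569 in 4D(+/+), 509 in C57, 442 in 4B(+/+) and 345 in 4B(-/-). Its other probe set read 592 in 4D(-/-) and 221 to 330 in the remaining 4 arrays. 4833420G17Rik, 28 genes after, read 251 in 4D(-/-) and 464 to 510 elsewhere. Tmem267, 29 genes after and chosen after its values were seen, read 29.6 in 4D(-/-) and 79.4 to 124 elsewhere. Elovl7, an elongase and the next gene before Pde4d, read 322 in 4D(-/-) and 151 to 213 elsewhere. Arsk, a sulphatase 96 genes before, read 144 in 4D(-/-) and 226 to 247 elsewhere.

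These 5 neighbours were 2 of the 21 genes above and 3 of the 11 genes below all other arrays. Tmem267 counts among the 3 through a value under the floor. The chromosome of Pde4d carried 3.68% of the 11481 genes that could be placed. Within these arrays, loss of PDE4D and a stretch of chromosome inherited with the targeted allele cannot be told apart.

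**Figure D5:**
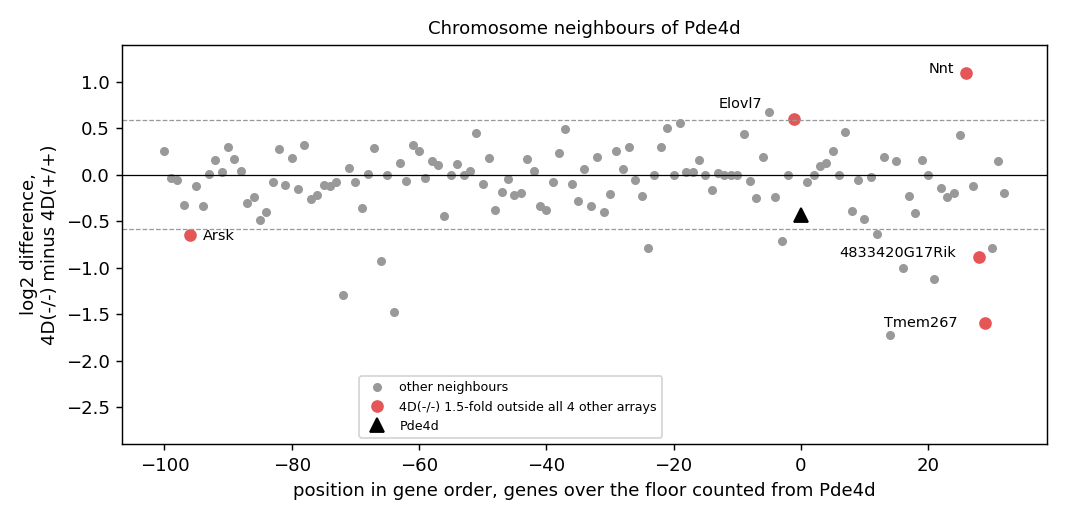
Log2 difference of 4D(-/-) minus 4D(+/+) (y axis) for the 132 genes over the floor nearest to Pde4d, by their position in gene order (x axis, no distances); the triangle is Pde4d and the dashed lines mark 1.5-fold. Red points are the 5 genes for which 4D(-/-) stood 1.5-fold or more outside all 4 other arrays, of which Nnt, 4833420G17Rik and Tmem267 lie 26, 28 and 29 genes after Pde4d. For Tmem267 the 4D(-/-) value was under the floor.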

How the data were processed

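Whole-lung RNA of 5 strains was measured on 5 arrays. Per the labels' protocols, 0.3 µg of total RNA entered a 3′ IVT labelling kit. The authors deposited 1 linear intensity per probe set and array, made with RMA per the submitters' processing notes; its version, its settings and a genome build are, in the sources used here, not given. Since RMA makes the distributions of the arrays alike, a shift shared by most genes would not be seen.

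Intensities were converted to log2 with python 3.11.15, numpy 2.4.6 and pandas 2.3.3. The platform annotation gave a single symbol for 34958 probe sets; 932 had several symbols and 9211 were not listed; the last 2 kinds were left out of gene counts. Of the 34958, 34754 took a current RefSeq symbol through the gene ID. For each gene the probe set of highest mean stood for it, and the gene entered when an array reached log2 6. Calls were 2-fold for genes and 1.5-fold for members of lists. The 59 lists held 1164 symbols, of which 1069 were measured and 873 were over the floor. No test was possible with 1 array a strain. The number of arrays limits the precision.

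Genes named were the 25 largest differences each way past 2-fold, up to 6 members of each list, the PDE4 family, and 15 genes each way for which 4D(-/-) lay farthest outside the other 4 arrays. Others are said to be chosen later, or serve as points of reference. The comparison, the lists and this rule were chosen with earlier results of these data known. Gene order and promoter windows of 250 bases came from RefSeq, GRCm38.p6, and motifs were searched on both strands. Windows on chr18 were left out, and motif shares of genes count only genes with a window. The code that makes the calls was run on simulated data with planted differences. That run checked the code and does not measure chance differences between these arrays. The alternatives were other floors, folds and references, a median over each gene's probe sets, median centring and cyclic loess (limma 3.58.1). The reference of C57, 4B(+/+) and 4B(-/-) was added after the data were seen.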

Additional observations from a re-analysis of the deposited data

Results flagged for a closer look

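For 4 genes the difference between knockout and wild type was past 2-fold in both lines and in opposite directions, with 1 array for each strain. The difference between the lines was not tested. Glycam1, the venule sialomucin, had a log2 difference of 3.71 in the PDE4D line and -2.41 in the PDE4B line, and read 1116 in 4D(-/-), 85.2 in 4D(+/+), 16.4 in 4B(-/-) and 87.2 in 4B(+/+). Rag1, the recombinase of lymphocyte precursors, had -3.21 in the PDE4D line and 1.39 in the PDE4B line, and read 10.6 in 4D(-/-), 98.1 in 4D(+/+), 331 in 4B(-/-) and 126 in 4B(+/+). Ccl25, a chemokine of thymus and gut, had -1.54 and 1.55, and read 37.1 in 4D(-/-), 108 in 4D(+/+), 231 in 4B(-/-) and 79.2 in 4B(+/+). Myl2, a light chain of heart and slow muscle myosin, had -1.54 and 1.75, and read 18.3 in 4D(-/-), 53 in 4D(+/+), 67.7 in 4B(-/-) and 20.2 in 4B(+/+). In Glycam1 the 4B(-/-) value was under the floor, and in Rag1 and Ccl25 the 4D(-/-) value was. In Myl2 both values of the PDE4D line and the 4B(+/+) value were. The differences that use these values rest on readings close to background.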

How the results depend on the processing

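No paired analysis was possible because each strain has 1 array. All 4 counts, of genes and of probe sets each way, stayed within 1.5 times under no floor, floors at log2 5 and 7, median centring and cyclic loess. Against C57, 39 genes were higher and 23 lower, and 66 probe sets were higher and 35 lower. Against the mean of C57, 4B(+/+) and 4D(+/+), 11 genes were higher and 27 lower, and 22 probe sets were higher and 43 lower. Against the mean of C57, 4B(+/+) and 4B(-/-), 17 genes and 29 probe sets were lower. At 1.5-fold 126 genes were higher and 521 lower, and 275 probe sets were higher and 787 lower. At 3-fold 2 genes were higher and 68 lower, and 4 probe sets were higher and 91 lower. With each gene read from the median over its probe sets, 15 genes were higher. That choice turned Fscn1 to -0.00081 and Nr4a3 to -0.24 on the log2 scale.

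Of the lists whose median was 1.2-fold or more from equal, those that turned against C57 went to 0.89 for thick filament, 0.52 for thin filament, 0.40 for muscle calcium and energy, 0.11 for brown fat, 0.093 for fatty acid synthesis, 0.19 for gland, 0.27 for squamous, 0.14 for thymus, 0.021 for neutrophil and -0.24 for B-cell genes. Of the lists with a smaller median 13 turned against C57, among them immediate early genes to -0.36, clock genes to -0.36, cartilage and tendon genes to 0.82, heat shock genes to 0.27 and cardiac genes to 0.20. The median of oxidative phosphorylation genes went from -0.59 to -0.05. Against C57, 4B(+/+) and 4B(-/-) the lists with a median of 1.2-fold or more turned to 0.58 for thick filament, 0.14 for thin filament, 0.17 for muscle calcium and energy, 0.0053 for gland and 0.14 for squamous genes. Among the genes named, those past 1.5-fold that turned against C57 were Rag1 at 0.69, Mylpf 1.004, Tmod4 0.53, Pvalb 0.71, Tnni2 0.94, Myoz1 0.70, Rpl3l 0.26, Tnnt3 0.89, Actn3 0.66, 2310002L09Rik 0.89, Myl1 0.92, Cox8b 0.18, Cox7a1 0.10, Tnnc2 1.11, Thrsp 0.38, Myot 0.95, Asb5 0.51, Pkia 0.0029, H2-Ob -0.36, Retn 0.044, Pth 0.26, Krt15 0.27, Elovl6 0.42, Cxcl5 1.53, Hspe1 0.11, Sdf2l1 0.26, Hrc 0.28, Myl3 0.44, Csrp3 0.19 and Grem1 0.56. Against C57, 4B(+/+) and 4B(-/-) they were Zbtb16 at -0.13, Mylpf 0.60, Tmod4 0.14, Pvalb 0.60, Tnni2 0.51, Myoz1 0.53, Rpl3l 0.33, Tnnt3 0.54, Actn3 0.54, 2310002L09Rik 0.40, Myl1 0.57, Tnnc2 0.75, Myot 0.58, Asb5 0.52, Pkia 0.095, Pth 0.46, Hrc 0.051, Grem1 0.15 and Lipf 1.14. By construction these references leave out the 4D(+/+) array, which was the highest of the 5 for 160 of the 174 lower genes; why it stood there was not tested.

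Signal over background limits 7 of the 24 higher and 63 of the 174 lower genes, whose lower value was under the floor. With 1 array a side the size of a chance difference is not known.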

Other observations

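Probe sets without a single gene name were not used in the gene counts. Of those with no listed gene 1616 were over the floor, 7 of them higher and 14 lower by 2-fold in 4D(-/-). The values of 7.17% of genes were exactly equal in 4D(-/-) and 4D(+/+).

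Some groups outside the sections above held single differences. Of 7 mast cell and eosinophil genes 2 were higher by 1.5-fold, both of them receptor subunits of the interleukin 3 family: Csf2rb2 read 161 in 4D(-/-) and 67.6 in 4D(+/+), and Csf2rb 660 and 417, with 428 to 538 in the other 3 arrays for Csf2rb. Of 28 heat shock and chaperone genes 2 were lower and 0 higher by 1.5-fold, against 4.53% and 1.1% of all genes. To some degree 20 were lower and 7 higher. Of the 2 genes, Hspe1, a mitochondrial co-chaperonin, read 1384 in 4D(-/-) and 2588 in 4D(+/+), with 1285 in C57. Sdf2l1 read 372 in 4D(-/-) and 657 in 4D(+/+), with 310 in C57. Cartilage and tendon genes were split, with 3 of 19 higher and 3 lower by 1.5-fold. To some degree 5 were higher and 13 lower. Col2a1, the collagen of cartilage, read 98.3 in 4D(-/-), 35 in 4D(+/+) and 142 in 4B(+/+). Tnmd, tenomodulin, read 56.9, 354 and 163 in the same order. Of 11 MHC class II genes 2 were higher and 0 lower by 1.5-fold, and 9 of 11 were higher to some degree.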
